A study of Homo sapiens with 4 samples.

Results

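The regions described here are 50 kb stretches of the genome whose parts were seldom joined to each other in control SH-SY5Y cells. They were chosen from the within-bin rows of a Micro-C contact table, in which a contact joins 2 places of the same 50 kb bin. A bin was taken when the contact counts of its 2 control libraries summed to less than 0.3 times the median of that sum over all within-bin rows of chromosomes 1 to 22. The median was 2356 contacts, so the limit was 706.8. The rule took 5922 of 46828 such rows (12.6%). The table as a whole holds 48992 within-bin rows among 89239 pairs of bins.

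SH-SY5Y is an established human neuroblastoma line. Both knockdown libraries came from cells carrying a lentiviral shRNA against TDP-43. The 2 control libraries are labelled as control in genotype, and the treatment protocol names a construct called shNC. All 4 libraries carry the same treatment protocol, with puromycin selection at 2 µg/mL for 2 weeks and upkeep at 1 µg/mL, which it words for the stable knockdown cells. The series concerns lasting loss of TDP-43, and the comparison asks which chromatin contacts differ when this RNA- and DNA-binding protein is depleted.

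In Micro-C, micrococcal nuclease cuts chromatin between nucleosomes, neighbouring ends are ligated, and each sequenced junction counts as 1 contact. Raw contacts within a bin depend on how accessible and compact the chromatin is, on how many copies of the region the cells carry, and on how much of its sequence can be placed uniquely. Gene-poor, late-replicating chromatin, blocks of duplicated sequence and the satellite-rich flanks of centromeres are the classic settings in which counts of this kind are low. None of these properties was measured here beyond gene content, promoter composition and position in the table.

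The listed pairs held 115168160 and 142424414 contacts in the knockdown libraries, against 158400914 and 163147992 in the control libraries. Levels are CPM, counts scaled to library size (with TMM factors from edgeR). No label states whether each library was grown as its own culture, and the p-values then reflect the spread of these 4 libraries alone, which may be technical. Because an shRNA acts on RNA, contact counts cannot test the knockdown.

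The promoters of genes that start inside these bins show the sequence at those start sites only. The base composition of whole bins was not measured. RefSeq promoters of the GRCh38.p14 build, covering 250 bases before to 50 bases after the start site, are printed for 5 of those genes, with every CpG in capitals. The first 3 are the protein-coding promoters with the lowest, the median and the highest GC content. OR5I1 encodes an olfactory receptor, ZNF385B a zinc finger protein and RNPC3 a protein of the minor spliceosome. The other pair are promoters of noncoding RNA genes that start in bins whose contacts differed most between the groups, LOC105372733 in a bin that was lower in the knockdown and LOC105374862 in one that was higher.
OR5I1, chr11:55936351-55936650, minus strand: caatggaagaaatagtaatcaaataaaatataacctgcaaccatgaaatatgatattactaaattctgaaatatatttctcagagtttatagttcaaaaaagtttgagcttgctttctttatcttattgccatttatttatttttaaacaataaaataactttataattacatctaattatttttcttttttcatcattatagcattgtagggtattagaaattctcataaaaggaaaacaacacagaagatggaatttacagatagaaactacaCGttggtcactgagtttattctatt
ZNF385B, chr2:179585857-179586156, minus strand: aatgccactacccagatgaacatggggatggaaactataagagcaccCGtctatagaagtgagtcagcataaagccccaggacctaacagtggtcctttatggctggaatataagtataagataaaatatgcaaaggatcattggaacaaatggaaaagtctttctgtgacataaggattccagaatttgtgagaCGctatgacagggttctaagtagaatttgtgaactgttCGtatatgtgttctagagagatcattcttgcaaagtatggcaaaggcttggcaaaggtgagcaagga
RNPC3, chr1:103525449-103525748, plus strand: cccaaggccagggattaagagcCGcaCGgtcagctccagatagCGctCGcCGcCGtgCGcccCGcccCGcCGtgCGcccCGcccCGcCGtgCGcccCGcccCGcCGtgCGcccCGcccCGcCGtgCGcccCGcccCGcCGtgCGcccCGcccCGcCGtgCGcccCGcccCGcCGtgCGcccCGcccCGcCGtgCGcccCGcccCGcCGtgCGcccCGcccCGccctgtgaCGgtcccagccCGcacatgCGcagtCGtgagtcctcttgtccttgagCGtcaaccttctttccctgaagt
LOC105372733, chr21:10119441-10119740, minus strand: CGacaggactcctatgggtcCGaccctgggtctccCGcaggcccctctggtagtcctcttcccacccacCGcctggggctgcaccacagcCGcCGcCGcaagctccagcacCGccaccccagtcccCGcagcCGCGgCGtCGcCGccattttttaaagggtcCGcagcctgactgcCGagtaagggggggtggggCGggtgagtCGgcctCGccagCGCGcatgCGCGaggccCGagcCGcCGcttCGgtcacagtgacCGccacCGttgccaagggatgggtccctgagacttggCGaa
LOC105374862, chr2:89845564-89845863, plus strand: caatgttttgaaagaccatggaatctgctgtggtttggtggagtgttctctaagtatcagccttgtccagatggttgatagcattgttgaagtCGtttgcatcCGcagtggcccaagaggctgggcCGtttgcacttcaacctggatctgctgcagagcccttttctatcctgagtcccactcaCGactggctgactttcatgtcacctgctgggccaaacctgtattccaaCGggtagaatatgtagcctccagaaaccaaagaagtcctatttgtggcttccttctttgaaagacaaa

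The OR5I1 promoter is 24.3% GC and holds a single CpG, while the ZNF385B promoter is 40.7% GC with 3. The RNPC3 promoter is 80.0% GC with 50 CpGs, many of them in a tandem array: shifted by 17 bases it matched itself at 68.6% of positions. In these 3 bins the contacts did not pass the test, with log2 fold changes of -0.44 at OR5I1 (SE 0.22, adjusted p = 0.18), 0.18 at ZNF385B (SE 0.22, adjusted p = 0.639) and 0.04 at RNPC3 (SE 0.20, adjusted p = 0.93, edgeR). The LOC105372733 promoter is 70.3% GC with 30 CpGs, and that of LOC105374862 is 48.0% GC with 5.

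AT-rich promoters were the common kind. Of the protein-coding promoters in the RefSeq table used here, 378 had their start site in a low-contact bin and 19605 in another listed bin. The table gave no promoter on chromosome 8. Median GC content was 40.7% in the low-contact bins, against 63.0% in the other bins, and the median number of CpGs was 2 against 22. GC content exceeded 60% in 24 of the 378 promoters (6.35%), against 59.7% in the other bins. No CpG at all was present in 56 of them (14.8%), against 1.40%. The letters TATAAA on either strand (TATAAA or TTTATA), the core of the TATA box, occurred in 27.5%, against 8.48% in the other bins and 8.84% of all listed promoters. Neither their position in the promoter nor its base composition was taken into account, so these shares do not count working TATA boxes. Promoters of long noncoding RNA genes had a median GC content of 39.0% for the 729 in low-contact bins, against 51.7% for the 10684 in other bins. These are descriptions of the reference sequence, and genes that share a bin share 1 contact count.

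**Figure D1:**
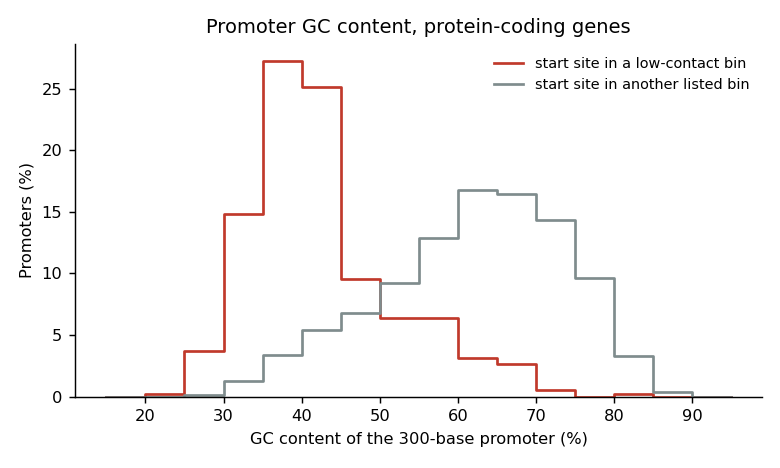
Distribution of the GC content (%, steps of 5 points) of 300-base promoters of protein-coding genes, as a percent of the promoters with a start site in a low-contact bin (378, red) or in another listed bin (19605, grey). The red curve is centred near the median of 40.7% and the grey one near 63.0%.

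The low-contact bins were gene-poor. No protein-coding gene body overlapped 3908 of them (66.0%), against 32.5% of the other bins. An annotated gene of any kind overlapped 67.4% of them, against 88.2%. The mean number of protein-coding genes was 0.367 per bin, against 0.944, and 124 bins (2.09%) held 2 or more, against 18.3%. Long noncoding RNA genes lay in 33.2% of them, against 40.4%. Pseudogenes lay in 14.6%, against 23.6%, and microRNA genes in 0.996%, against 3.17%.

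Where a protein-coding gene was present, it was usually long. The longest gene of a gene-bearing low-contact bin had a median length of 421 kb, against 125 kb in the other bins. It exceeded 500 kb in 44.0% of them, against 13.4%. Protein-coding genes as a whole had a low-contact bin in 1091 of 17943 cases with a listed bin (6.08%).

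Very long neuronal and fragile-site genes held the most low-contact bins. LINGO2, which encodes a leucine-rich repeat membrane protein, had 17 of its 22 listed bins in the set. DCC, the netrin receptor of axon guidance, had 15 of 22, and PCDH15, a protocadherin of inner-ear hair cells, 14 of 27. GPC5, a glypican, had 14 of 30. LRP1B, a large lipoprotein receptor relative, and NAALADL2, a peptidase-like gene, had 13 of 23 each. FHIT, the gene of a common fragile site, had 13 of 31. NRXN3, a presynaptic neurexin, had 13 of 34, and MACROD2, which encodes a macrodomain protein, 13 of 43.

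Chromosomes differed widely in their share. The share was highest on chromosome 4, where 700 of 2951 listed bins (23.7%) were low in contacts, followed by chromosome 21 with 18.5%, chromosome 3 with 18.0%, chromosome 5 with 17.4%, chromosome 13 with 17.4% and chromosome 18 with 17.1%. The lowest was on chromosome 19, with 12 of 1047 (1.15%), followed by chromosome 17 with 3.17%, chromosome 22 with 3.55% and chromosome 16 with 4.94%. Chromosomes 16, 17, 19 and 22, at the low end, are known as gene-rich. Counts are not corrected for copy number, and the part of copy number in this order was not tested.

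**Figure D2:**
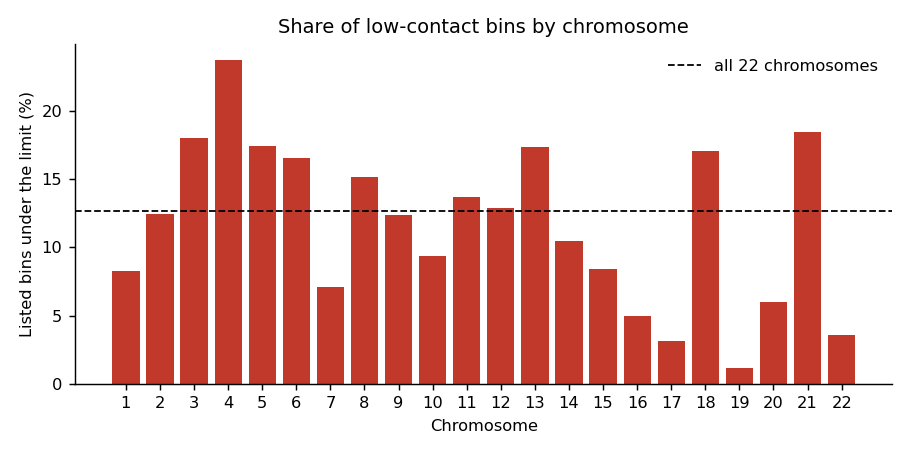
Percent of the listed within-bin rows of each chromosome that fell under the limit. The dashed line is the share over chromosomes 1 to 22 together, 12.6%. Chromosome 4 stands highest at 23.7% and chromosome 19 lowest at 1.15%.

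Low-contact bins lay in thinly listed terrain, while few bins of either kind lay beside a large blank. Both adjoining bins were listed for 59.0% of them, against 93.5% of the other bins, and neither was listed for 588 (9.93%), against 0.949%. The share of a bin's listed neighbours that were low-contact bins, averaged over bins, was 42.9% for low-contact bins, against 7.41% for the other bins. The assembly's gaps were not used here, so long stretches of bins that are not listed in the table stood in for them. Such stretches are not the same as gaps, since bins can be unlisted for other reasons; the longest on chromosome 6, for example, runs from 28500001 to 33450000. Of the low-contact bins 31 (0.523%) lay within 100 kb of a stretch of at least 20 unlisted bins (1 Mb), against 0.408% of the others. Within 1 Mb of a chromosome's longest unlisted stretch lay 99 (1.67%), against 1.10%. Near the ends of the chromosomes they were scarce, with 105 (1.77%) within 5 Mb of the outermost listed bin, against 9.20%.

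Among listed bins, most stood alone or in short runs. The 5922 bins formed 4119 runs of adjoining bins, 2920 bins (49.3%) stood alone, and 47 runs were of 5 or more. An unlisted bin also ends a run, and 1839 of the 5922 (31.1%) had only 1 listed neighbour and 588 (9.93%) none. A bin that stood alone may therefore adjoin unlisted bins whose counts are not known. Each of the 3 longest runs held 8 bins. That on chromosome 12 (17850001 to 18250000) overlaps PIK3C2G, a class II phosphoinositide kinase, and RERGL, a Ras-like gene, with a median log2 fold change of -0.10. Those on chromosome 13 (92300001 to 92700000) and chromosome 18 (53050001 to 53450000) lie in GPC5 and DCC, with medians of 0.13 and 0.25. Runs of 7 lay in MALRD1 on chromosome 10 (median 0.22), around UFM1 on chromosome 13 (0.36) and in NRXN3 on chromosome 14 (0.25). None of the bins of these 6 runs passed the test of the difference between the groups.

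A few low-contact bins were sharp dips. In 17 of them (0.287%) both neighbours were listed at or above the median count, and these were singled out after their values were seen. The deepest contrast was at 75250001 to 75300000 on chromosome 15, which holds GOLGA6C and GOLGA6D, duplicated golgin genes. It had 158 and 241 contacts in the knockdown libraries, against 271 and 296 in the control libraries. Its neighbours had control sums of 29833 and 14373, against 567 in the bin itself, and its log2 fold change of -0.33 did not pass (SE 0.22, adjusted p = 0.338, edgeR). The bin of MEG8 on chromosome 14, with a control sum of 290 between neighbours of 6130 and 14137, is described below among the increases. Over the 17 dips the median log2 fold change was 0.30 (from -0.33 to 1.19), 4 were higher in the knockdown (23.5%) and 0 lower. Over all the low-contact bins 6.18% were higher and 0.135% lower, and over all within-bin rows of chromosomes 1 to 22, 7.29% and 14.7%. Of these 4 calls, the one at MEG8 held without each library in turn, and those at C8A, a complement gene, at PLA2R1, a phospholipase receptor gene, and in a bin of chromosome 10 with no protein-coding gene were lost without either knockdown library.

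The counts of a low-contact bin were small in every library. The lowest, median and highest counts were 116, 251 and 520 in knockdown library 1 and 163, 306 and 600 in knockdown library 2. In control library 1 they were 88, 291 and 464, and in control library 2 they were 59, 281 and 460. In CPM the medians were 2.07 and 2.06 in the knockdown libraries, against 1.90 and 1.82 in the control libraries. The medians over all within-bin rows were 8.15 and 8.12 CPM in the knockdown libraries, against 7.77 and 7.56 in the control libraries.

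Replicates varied more here than elsewhere. The median SD of log2 CPM between the 2 knockdown libraries was 0.128 in low-contact bins, against 0.0533 in the other bins. Between the 2 control libraries it was 0.156, against 0.0703. The low-contact bins held 1.61% and 1.59% of the within-bin contacts of the knockdown libraries, against 1.31% and 1.22% of those of the control libraries.

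The difference between knockdown and control has to be read with the choice of bins in mind. The control counts chose the bins, so the control side of every fold change was used by the rule. The table also has a floor, its lowest total over the 4 libraries being 868. A bin low in control is therefore listed only if the knockdown counts make up the rest. At a control count of 471, the top of the class under 0.2 times the median, a knockdown count of 397 was needed. The fold changes of the set are given as a description only.

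**Figure D3:**
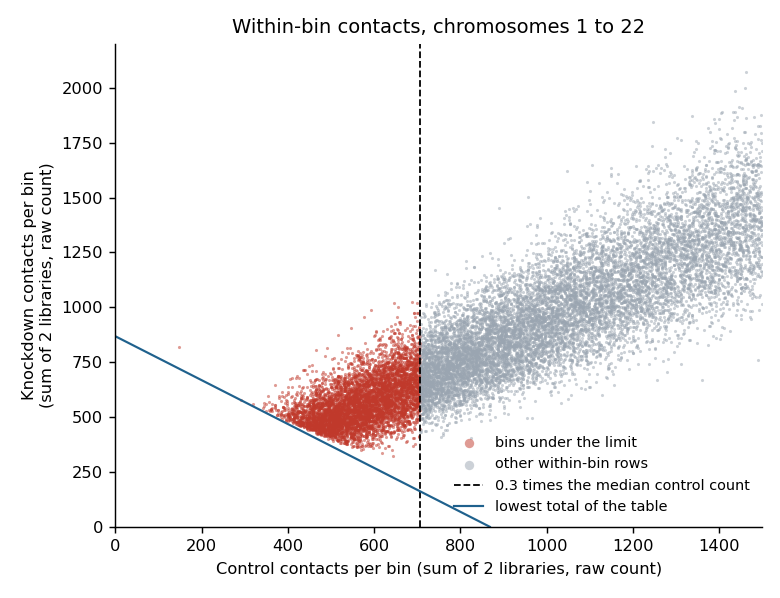
Summed contacts of the 2 knockdown libraries (vertical axis) against those of the 2 control libraries (horizontal axis) for within-bin rows of chromosomes 1 to 22, as raw counts. Red points are the 5922 bins under the limit of 706.8 (dashed line), grey points other bins, and the blue line marks the lowest total in the table, 868. The red cloud is cut off along the blue line at its lower left, and the bin at 147 control contacts stands apart from it.

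Of the 5922 bins 366 (6.18%) were higher and 8 (0.135%) lower in the knockdown at an adjusted p under 0.05 (edgeR quasi-likelihood test over all 89239 pairs). Over all within-bin rows of chromosomes 1 to 22, 7.29% were higher and 14.7% lower. The median log2 fold change was 0.18, against 0.02 over all those rows. Under a scaling that takes out, by a loess fit per library, how fold changes drift with abundance (here called trend removed), 163 were higher and 16 lower, against 8.0% and 5.24% of all the rows, with medians of 0.09 and 0.03. All 163 were among the 366, and the 8 were among the 16. Without knockdown library 1 the counts were 46 higher and 0 lower, and without knockdown library 2 they were 89 and 6. Without control library 2 they were 376 and 40. At an unadjusted p under 0.05 there were 1018 higher bins (17.2%) and 56 lower ones (0.946%), against 15.2% and 19.2% of all the rows.

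Both knockdown libraries lay above both control libraries in 2486 bins (42.0%), against 30.9% of all within-bin rows of chromosomes 1 to 22. Both lay below in 402 (6.79%), against 29.2%. When bins were chosen by the same multiple of the median on the knockdown libraries in place of the control libraries, 5702 were taken, of which 118 were higher and 47 lower, with a median of 0.06. The sets share 4769 bins, 80.5% of the control-chosen and 83.6% of the knockdown-chosen set.

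Increases were most frequent in the class of lowest control counts, where the choice of bins and the floor favour them. Under 0.2 times the median there were 692 bins, with a median log2 fold change of 0.42, and 129 were higher (18.6%) and 0 lower. From 0.6 to 1 times the median 12.3% were higher, and from 1 to 2 times 11.7%. The lowest fold change in the class under 0.2 was 0.06. At the top of that class a knockdown count of 397 was needed for listing. The floor thus leaves little room for values below 0, and the control count that sets the class also enters the fold change. Neither the share of increases in this class nor the absence of decreases is read as a result. In the classes from 0.2 to 0.3 times the median 4.25% to 4.78% were higher, against 7.29% of all the rows. From 0.2 to 0.225 times the median the median fold change was 0.19, from 0.225 to 0.25 it was 0.14, from 0.25 to 0.275 it was 0.12, and from 0.275 to 0.3 it was 0.11. Just outside the limit, from 0.3 to 0.35 times the median, 2422 bins had a median of 0.10, with 136 higher (5.62%) and 7 lower (0.289%). Among the 2632 low-contact bins at 0.25 times the median or more, 114 were higher (4.33%) and 8 lower (0.304%). Their median was 0.11, or 0.03 with the trend removed. Pairs between different bins in the same range of control counts, 15584 in all, had a median of 0.14, with 5.61% higher and 0.866% lower.

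**Figure D4:**
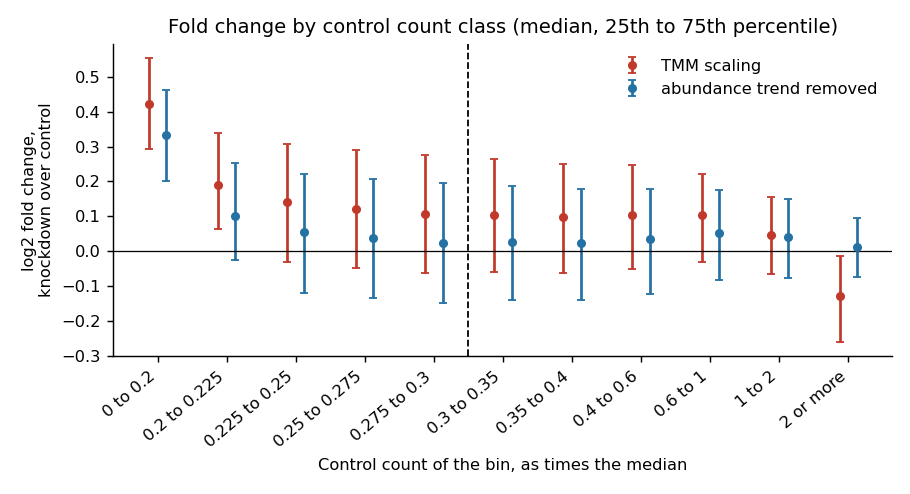
Log2 fold change, knockdown over control, of within-bin rows of chromosomes 1 to 22 in classes of control count given as times the median. Points are medians and bars run from the 25th to the 75th percentile of the bins, with TMM scaling in red and the abundance trend removed in blue. The dashed line is the limit of 0.3. The class under 0.2 stands highest at 0.42, or 0.33 with the trend removed, and the class from 0.275 to 0.3 is at 0.11, or 0.02.

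Bins with a protein-coding gene had 160 increases (7.94%) and 2 decreases among 2014, with a median log2 fold change of 0.21. Over all listed bins with such a gene 6.29% were higher. Bins without one had 206 increases (5.27%) and 6 decreases among 3908, with a median of 0.16, against 9.02% higher over all listed bins without one. Their median control counts were 574 and 576, and the difference between the fold changes was not tested. Of the 31 bins within 100 kb of a long unlisted stretch 2 were higher and 0 lower, with a median of 0.15. Over all 198 listed bins that near to such a stretch, 7 were higher and 43 lower, with a median of -0.07.

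At the limit itself, the 3 bins just inside had a control sum of 706. They were the bin of SLC35F1 on chromosome 6 (log2 fold change -0.03) and a pair on chromosome 8 with no protein-coding gene (-0.48 and 0.22). The 3 just outside had a sum of 707 and lay on chromosome 1 (0.02), in CTNNA3 on chromosome 10 (-0.28) and at EDNRB on chromosome 13 (0.23).

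The most extreme bin of the set borders the large unlisted stretch of chromosome 16, which runs from 35950001 to 46350000. The bin from 46350001 to 46400000 had 360 and 458 contacts in the knockdown libraries, against 88 and 59 in the control libraries. It had the fewest control contacts of the 5922, neither neighbour is listed, and no gene is annotated in it. With edgeR it differed by an estimated log2 fold change of 2.66 (SE 0.24, adjusted p = 4.63e-18), and without each library in turn it stayed between 2.40 and 2.97. It is also the only low-contact bin in a between-bin pair that was higher in the knockdown. That pair joins it to a bin 11800 kb away, at 34550001 to 34600000, with 405 and 610 contacts in the knockdown libraries, against 126 and 99 in the control libraries. The pair's control sum of 225 exceeds the 147 contacts within the bin itself.

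The second largest increase was in an imprinted gene cluster of noncoding RNAs. At 100950001 to 101000000 on chromosome 14, the bin of MEG8 and of genes of the SNORD114 small nucleolar RNA family had 2.31 and 2.00 CPM in the knockdown libraries, against 0.68 and 1.21 CPM in the control libraries. The groups do not overlap, which the choice by size of change favours, and control library 1 is the lower of the control pair. With edgeR this gave an estimated log2 fold change of 1.19 (SE 0.23, adjusted p = 2.55e-05). It was 0.82 without control library 1 and 1.67 without control library 2. The contacts of this bin with its neighbour did not pass (log2 fold change 0.35, SE 0.22, adjusted p = 0.296).

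Immunoglobulin and gene-free bins made up most of the other large increases. The bin at 89800001 to 89850000 on chromosome 2, in the immunoglobulin kappa locus and holding the start of LOC105374862, had 3.48 and 2.58 CPM in the knockdown libraries, against 1.39 and 1.65 CPM in the control libraries. In log2 terms it differed by 0.99 (SE 0.20, adjusted p = 6.25e-05), and it lies 250 kb from a long unlisted stretch. Without knockdown library 1 its call was lost (adjusted p = 0.0891). The gene-free bin at 49250001 to 49300000 on the same chromosome had 3.07 and 3.40 CPM in the knockdown libraries, against 1.81 and 1.56 CPM in the control libraries. Its log2 fold change of 0.94 (SE 0.19, adjusted p = 7.34e-05) passed without each library in turn.

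The remaining increases named here each lost their call without 1 of the knockdown libraries. Gene-free bins had log2 fold changes of 1.03 on chromosome 15 (37850001 to 37900000, adjusted p = 0.164 without knockdown library 1), 0.98 on chromosome 5 (107200001 to 107250000, adjusted p = 0.0569 without knockdown library 2) and 0.93 on chromosome 13 (104350001 to 104400000, adjusted p = 0.182 without knockdown library 1). A bin of NKAIN3, which encodes a protein that interacts with the sodium pump, had a log2 fold change of 0.93 on chromosome 8 (62400001 to 62450000, adjusted p = 0.0569 without knockdown library 1). Among the 5 bins with the fewest control contacts, those on chromosome 20 (12150001 to 12200000) and chromosome 6 (23700001 to 23750000) had log2 fold changes of 0.85 and 0.87. Both lost their call without knockdown library 2, at 0.77 and 0.51.

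Decreases reached a log2 fold change of -0.83 at most, and each of the 8 calls was lost without at least 1 control library and without knockdown library 1. On chromosome 21 the bin at 10100001 to 10150000 holds LOC105372733, whose CpG-rich promoter is printed above, and CDRT15P8, a pseudogene. It had 0.96 and 1.39 CPM in the knockdown libraries, against 2.35 and 1.85 CPM in the control libraries, and neither of its neighbours is listed. With edgeR it was lower by an estimated log2 fold change of -0.83 (SE 0.23, adjusted p = 0.00464). The next were gene-free bins on chromosome 10 (56150001 to 56200000, -0.73) and chromosome 9 (26250001 to 26300000, -0.70) and a bin of the noncoding LINC02377 on chromosome 4 (131350001 to 131400000, -0.72).

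A bin of LOC107986388 on chromosome 5 (93000001 to 93050000) had a log2 fold change of -0.69, and a gene-free bin on chromosome 3 (176150001 to 176200000) one of -0.62. The bin of GTF2IRD2B, a duplicated transcription factor gene of the Williams syndrome region (chromosome 7, 75100001 to 75150000), had -0.62. The bin of FAM227B and the galactokinase gene GALK2 (chromosome 15, 49350001 to 49400000) had -0.60, with 1.38 and 1.35 CPM in the knockdown libraries, against 2.05 and 2.08 CPM in the control libraries. Without knockdown library 1 none of the 8 passed, with log2 fold changes from -0.64 to -0.37 and adjusted p from 0.231 to 0.556. Without knockdown library 2, 4 passed, and the log2 fold changes of the 8 ran from -1.13 to -0.58. With DESeq2 5 of the 8 passed, those at GTF2IRD2B (adjusted p = 0.0635), at GALK2 (adjusted p = 0.0667) and on chromosome 3 (adjusted p = 0.0925) being lost. The GALK2 bin kept its size, from -0.62 to -0.58, without each library in turn, with no call in any of these 4 fits.

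**Figure D5:**
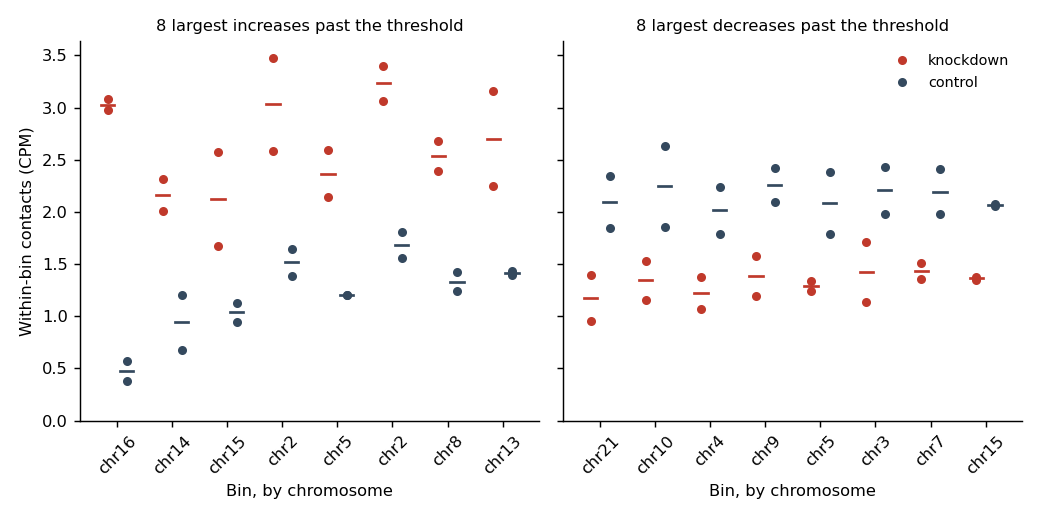
Within-bin contacts (CPM) of the 8 low-contact bins with the largest increase (left panel) and the 8 with the largest decrease (right panel), by chromosome. Each point is a library and each short line the mean of 2, with knockdown in red left of control in dark blue. In all 16 bins the groups do not overlap, which their choice by size of change favours, so this is no further support. Over all within-bin rows of chromosomes 1 to 22, both knockdown libraries lay above both control libraries in 30.9% and below in 29.2%. The bin of chromosome 16 has the widest gap, with 2.98 and 3.08 CPM in the knockdown libraries, against 0.58 and 0.38 CPM in the control libraries.

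Giant genes of fragile sites, adhesion and synapses were the gene list with the largest share in the set. Of 49 such genes with a listed bin, 41 had a low-contact bin, and 300 of their 1051 listed bins (28.5%) were low in contacts, against 6.80% of the bins of all protein-coding genes. Of the 300, 13 were higher (4.33%, against 7.94% of all gene-bearing low-contact bins) and 0 lower, with a median log2 fold change of 0.20, against 0.21 for all 2014 gene-bearing low-contact bins. With the trend removed 8 were higher.

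FHIT, which encodes a diadenosine triphosphate hydrolase, had the highest median among the genes named here for their number of low-contact bins. Its 13 bins ran from 0.30 to 0.91 with a median of 0.48, and 3 were higher under both scalings (7.94% of all gene-bearing low-contact bins were higher with TMM). Over all 31 listed bins of FHIT the median was 0.41, so the rise was not particular to its low-contact bins. The largest of the 13, at 60100001 to 60150000 on chromosome 3, had 406 and 551 contacts in the knockdown libraries, against 319 and 257 in the control libraries. Its call held without each library in turn, with adjusted p up to 0.0244. The 17 bins of LINGO2 ran from -0.29 to 0.55 with a median of 0.12, and none passed. The 15 of DCC had a median of 0.26, and none passed either. Over all 22 listed bins of each gene the medians were 0.06 for LINGO2 and 0.20 for DCC.

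LSAMP, which encodes a limbic adhesion protein, had 6 of 13 listed bins in the set. Its largest change was at 115850001 to 115900000 on chromosome 3, with 345 and 470 contacts in the knockdown libraries, against 230 and 261 in the control libraries (log2 fold change 0.91, SE 0.20, adjusted p = 0.000218, edgeR). That call also held without each library in turn, with adjusted p up to 0.0411. A bin of KCNIP4, a potassium channel partner (chromosome 4, 21450001 to 21500000), had a log2 fold change of 0.71. Its call was lost without either knockdown library and without control library 1. Calls in NAALADL2 (0.62) and NRXN3 (0.59) were lost without either knockdown library and without control library 1. The NAALADL2 call was also lost with the trend removed (adjusted p = 0.0919, edgeR). Without knockdown libraries 1 and 2 in turn the log2 fold changes stayed at 0.63 and 0.61 in NAALADL2 and at 0.58 and 0.59 in NRXN3.

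Receptor clusters of smell and taste were the other large group. Of 259 olfactory and taste receptor genes with a listed bin, 82 had a low-contact bin, and 45 of their 187 listed bins (24.1%) were low in contacts. Of these 4 were higher (8.89%, against 6.18% of all the low-contact bins) and 0 lower, with a median log2 fold change of 0.22, and 0 were higher with the trend removed. OR4C15 and OR4C16 share the bin at 55550001 to 55600000 on chromosome 11, with 2.41 and 1.58 CPM in the knockdown libraries, against 1.37 and 1.15 CPM in the control libraries (log2 fold change 0.66). The bins of OR10J1 on chromosome 1 and of the bitter receptor TAS2R16 on chromosome 7 had log2 fold changes of 0.63 each. All 3 of these calls were lost without knockdown library 1, where the OR4C15 bin was at 0.33 (adjusted p = 0.621). The OR4C15 call was also lost without control library 2. The TAS2R16 call was also lost without knockdown library 2 and without control library 1. At OR10J1 the control libraries differed, and the log2 fold change was 0.21 without control library 1 (adjusted p = 0.522) and 1.22 without control library 2, with the call also lost without knockdown library 2.

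Families of duplicated genes had a smaller number of bins in the set. Of 142 such genes with a listed bin, 32 had a low-contact bin, which made up 29 of 167 listed bins (17.4%). Of the 29 bins 2 were higher (6.90%, against 7.94% of all gene-bearing low-contact bins) and 1 was lower (3.45%, against 0.0993%). Their median log2 fold change was 0.05. TRIM64C, of a tripartite motif family with many copies, had 2.33 and 2.22 CPM in the knockdown libraries, against 1.14 and 1.38 CPM in the control libraries (log2 fold change 0.85, SE 0.22, adjusted p = 0.00261). Without knockdown library 1 its adjusted p was 0.0704. DEFB125, a beta-defensin gene, had a log2 fold change of 0.52, and GTF2IRD2B is the decrease given above. The call at DEFB125 was lost without either knockdown library and without control library 2, where the log2 fold change was 0.31. With the trend removed the DEFB125 bin did not pass either (adjusted p = 0.112, edgeR). A bin of HYDIN, a cilium gene with a near-identical copy, had -0.60 and did not pass (adjusted p = 0.0522), but passed with the trend removed (-0.69, adjusted p = 0.0331). Reads from near-identical copies may be placed in either, so values in these families are uncertain.

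The other lists held few low-contact bins. Zinc finger genes had 32 of 699 listed bins in the set (4.58%). Of these 3 were higher (9.38%, against 7.94% of all gene-bearing low-contact bins) and 0 lower. These were the bins of ZNF474 (0.61), of ZNF365 (0.59) and of the neighbours ZNF112 and ZNF285 (0.55), and each lost its call without either knockdown library. With the trend removed only the ZNF474 bin was still called higher. The log2 fold change at ZNF112 was 0.35 without control library 2. Antigen receptor segments had 5 of 32 bins (15.6%), none of which passed, with a median of 0.30. Keratin and epidermal clusters had 6 of 60, none of which passed, with a median of 0.10. Of the 15 noradrenergic identity genes with a listed bin, which mark this neuroblastoma cell state, 0 of their 21 bins were low in contacts.

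Contacts of these bins with other bins were seldom listed. Only 16 of 39797 pairs between different bins of chromosomes 1 to 22 involve a low-contact bin. Of the low-contact bins 0.270% are in such a pair, against 55.4% of the other bins. The floor of 868 contacts holds for pairs as well, and the rule took bins with few contacts. This difference was thus largely set in advance and is not read as a result. Of the 16 pairs 11 join adjoining bins. Besides the pair on chromosome 16, 1 passed and was lower in the knockdown (over all such pairs 3.77% were higher and 5.84% lower). The pairs named here were chosen after their values were seen.

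The lower pair lies in the imprinted domain of chromosome 11. It joins the low-contact bin of CDKN1C, which encodes a cell cycle inhibitor (2850001 to 2900000), to a bin of KCNQ1, a potassium channel gene, 350 kb away (2500001 to 2550000). It had 192 and 215 contacts in the knockdown libraries, against 352 and 358 in the control libraries. With edgeR this was an estimated log2 fold change of -0.61 (SE 0.22, adjusted p = 0.0369), and the call was lost without any 1 of the 4 libraries (adjusted p from 0.0505 to 0.286). Within the CDKN1C bin the fold change did not pass (-0.51, SE 0.22, adjusted p = 0.106). The pair's control sum of 710 exceeds the 617 within the bin, as a pair did in 7 of the 16 cases. The floor favours this, since only pairs with enough contacts are listed.

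The other 3 pairs of bins that do not adjoin did not pass. The shortest joins bins of chromosome 3 that lie 150 kb apart and hold no protein-coding gene (75250001 and 75400001 at their starts, log2 fold change 0.08). A bin on chromosome 2 at 176650001 to 176700000 pairs with the HOXD8 to HOXD11 bin 550 kb away (log2 fold change 0.09). A bin of SRBD1 on the same chromosome pairs with that of SIX2, a homeobox gene, 450 kb away (0.54, adjusted p = 0.081).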

How the data were processed

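Micro-C contacts of 2 TDP-43 knockdown and 2 control SH-SY5Y libraries were used. HiC-Pro and hg38 are named, without versions, per the submitters' processing notes. The deposited table gives raw contact counts per library for 89239 pairs of 50 kb bins. Per the file headers, its other columns are the authors' log2 fold change and log2 mean abundance, their F statistic (a score), p-value and adjusted p-value. Only pairs above an abundance floor are listed, so totals are not full depth, and raw counts carry copy number and mappability.

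The counts were fitted over all pairs with edgeR 4.0.16 (R 4.3.3, TMM, glmQLFit, glmQLFTest, filterByExpr, which removed 0 pairs; Benjamini-Hochberg threshold 0.05). Removing the abundance trend by loess brought the fit to the authors' deposited log2 fold changes (largest gap 0.00311). The fits were tested on simulated data. No label says whether libraries that share a number were handled together. Their deviations from the group means had a correlation of 0.0192 over all pairs of bins, which cannot decide this.

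Genes and promoters are those of RefSeq (GRCh38.p14). Named were the 8 largest increases and decreases past the threshold, the 5 lowest bins, 3 on each side of the limit, the 5 longest runs with ties, the 10 genes with most bins and up to 4 per list. An item that this rule named is not reported here. Dips and between-bin pairs fall outside the rule. The bins and lists were chosen with earlier results of these data known. Alternatives were DESeq2 1.42.0, trend removal, no filter, a replicate block, leaving out each library, within-bin rows alone, the authors' table and other limits.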

Additional observations from a re-analysis of the deposited data

How the results depend on the processing

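The counts of higher and lower bins among the 5922 (366 and 8, median log2 fold change 0.18) moved with the processing. The median stayed above 0 in all settings run. In most of them the choice on control counts and the floor favour this, so it is no further support. DESeq2 gave 199 higher and 5 lower, removal of the abundance trend 163 and 16 (median 0.0898), the authors' deposited values 162 and 16 (0.0887), and a fit on within-bin rows alone 546 and 14. An adjusted p threshold of 0.01 gave 108 and 1. Leaving out each library gave 46 to 435 higher, 0 to 40 lower and medians of 0.15 to 0.20. A limit of 0.2 times the median gave 129 and 0 (0.42), and 0.4 gave 643 and 28 (0.14). Bins chosen on control 1 and compared with control 2 had 355 higher and 19 lower. Those chosen on control 2 and compared with control 1 had 305 and 71 (median 0.11), and those chosen on the knockdown libraries 118 and 47 (0.0605). Bins at 0.25 times the median or more, a choice added after seeing the data, had 114 and 8 (0.11), or 59 and 16 (0.0277) with the trend removed. The cause of these moves was not tested, apart from the smaller sets and fewer libraries that some settings hold by construction. The labels' replicate numbers as a block, on libraries that the labels link by number alone, gave 397 higher and 8 lower.

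The share without a protein-coding gene was 64.5% at 0.2 and 63.4% at 0.4 times the median, against 66.0%. The share beside an unlisted stretch, a measure added after seeing the data, was 0.867% at 0.2 times the median and 1.37% within 500 kb, against 0.523%. Of the 18 named bins, 3 passed in all 7 settings tried on them, 12 lost their call without knockdown library 1 and 7 without knockdown library 2, and none reversed. Assembly gaps, repeat-masked share and single-copy 31-mers were planned but not run, since no genome sequence was used here. The small counts per library limit what these bins can show.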
